A study of Mus musculus with 2 samples.

Results

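The genes described here are 55 regulators of DNA methylation and of Polycomb and Trithorax chromatin, chosen by name and matched by symbol to the mouse Ensembl gene identifiers of the deposited tables. They are 55 of 21461 nuclear protein coding genes and of 43346 Ensembl genes measured. They comprise 2 maintenance methylation genes, 3 de novo methylation genes, 5 genes of methylcytosine oxidation, 7 genes of Polycomb repressive complex 2 (PRC2), 16 of Polycomb repressive complex 1 (PRC1) and 4 of the Polycomb deubiquitinase PR-DUB. The others are 2 H3K27 demethylases, 9 Trithorax genes, 3 genes of Dot1l complexes and 4 histone H3K9 and H3K36 methyltransferases.

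The samples were 2 libraries of total RNA, each made from a pool of 100 hematopoietic stem cells (HSC, the self-renewing bone marrow cells from which blood lineages arise). Both came from male C57BL/6J mice, adult at 5 to 6 weeks and untreated as far as the labels go, and are biological replicates 1 and 2 of a single group. Both carry the same donor identifier under different biosample identifiers, so the 2 pools may share an animal and the spread between them may be technical. The labels do not say how the cells were sorted, and with 1 group no condition was compared.

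DNA methylation is copied onto new strands by Dnmt1 with its partner Uhrf1, laid down afresh by Dnmt3a and Dnmt3b, and oxidised by the Tet enzymes, whose cofactor 2-oxoglutarate is a product of Idh1 and Idh2. PRC2 methylates histone H3 lysine 27 through Ezh2 or Ezh1, PRC1 ubiquitinates histone H2A through Ring1 or Rnf2 with a Pcgf partner, and the Trithorax group methylates H3 lysine 4 and opposes Polycomb silencing. In blood stem cells Bmi1 is known for self-renewal, and DNMT3A, TET2 and ASXL1 are known in human blood as genes mutated in clonal hematopoiesis.

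Several of these genes have more than 1 annotated start, with estimated transcript levels divided among them. The promoters are therefore shown first for the members where the starts or absence of expression matter. The sequences are the 250 bases before and 50 bases after a RefSeq start (GRCm38.p6), written 5′ to 3′ on the gene's strand, with CpG dinucleotides, the site of DNA methylation, in capitals. The first Dnmt3a window is chr12:3806730-3807029 on the plus strand with 46 CpGs, and the internal one is chr12:3891494-3891793 on the plus strand with 18. The Dnmt3b window is chr2:153649199-153649498 on the plus strand with 30 CpGs. The Dnmt3l window, the first of its 3 starts, is chr10:78042037-78042336 on the plus strand with 6. For Kdm2b, on the minus strand, the upstream window is chr5:122989050-122989349 with 28 CpGs and the internal one chr5:122900301-122900600 with 49.
Dnmt3a upstream start: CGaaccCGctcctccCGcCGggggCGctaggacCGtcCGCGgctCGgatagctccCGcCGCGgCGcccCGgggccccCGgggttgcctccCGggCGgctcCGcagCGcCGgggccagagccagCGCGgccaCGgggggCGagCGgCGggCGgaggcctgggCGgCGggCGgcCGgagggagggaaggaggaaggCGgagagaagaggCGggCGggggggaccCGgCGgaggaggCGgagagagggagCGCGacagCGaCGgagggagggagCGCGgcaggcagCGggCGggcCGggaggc
Dnmt3a internal start: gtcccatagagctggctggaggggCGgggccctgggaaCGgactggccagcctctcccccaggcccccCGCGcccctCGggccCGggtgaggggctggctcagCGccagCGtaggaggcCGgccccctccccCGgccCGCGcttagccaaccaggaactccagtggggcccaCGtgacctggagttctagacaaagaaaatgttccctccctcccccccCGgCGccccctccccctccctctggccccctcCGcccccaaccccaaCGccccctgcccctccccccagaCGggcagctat
Dnmt3b start: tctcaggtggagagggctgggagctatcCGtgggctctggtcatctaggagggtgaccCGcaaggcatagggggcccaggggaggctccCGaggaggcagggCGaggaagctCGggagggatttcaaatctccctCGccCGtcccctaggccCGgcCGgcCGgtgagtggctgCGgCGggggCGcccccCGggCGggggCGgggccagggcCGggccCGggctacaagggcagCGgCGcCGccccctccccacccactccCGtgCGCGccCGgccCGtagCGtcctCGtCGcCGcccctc
Dnmt3l first start: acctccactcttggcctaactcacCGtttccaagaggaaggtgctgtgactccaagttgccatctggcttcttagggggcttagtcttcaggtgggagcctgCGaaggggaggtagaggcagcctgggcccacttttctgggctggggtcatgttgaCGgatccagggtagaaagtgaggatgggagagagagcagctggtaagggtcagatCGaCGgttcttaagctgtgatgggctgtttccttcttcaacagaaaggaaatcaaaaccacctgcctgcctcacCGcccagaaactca
Kdm2b upstream start: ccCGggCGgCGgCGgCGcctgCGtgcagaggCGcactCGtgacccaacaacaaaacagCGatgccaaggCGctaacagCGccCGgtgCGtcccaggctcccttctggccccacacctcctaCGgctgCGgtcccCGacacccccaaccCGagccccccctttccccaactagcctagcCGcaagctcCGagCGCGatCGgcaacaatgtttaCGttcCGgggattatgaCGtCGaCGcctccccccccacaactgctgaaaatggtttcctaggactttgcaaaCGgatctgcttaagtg
Kdm2b internal start: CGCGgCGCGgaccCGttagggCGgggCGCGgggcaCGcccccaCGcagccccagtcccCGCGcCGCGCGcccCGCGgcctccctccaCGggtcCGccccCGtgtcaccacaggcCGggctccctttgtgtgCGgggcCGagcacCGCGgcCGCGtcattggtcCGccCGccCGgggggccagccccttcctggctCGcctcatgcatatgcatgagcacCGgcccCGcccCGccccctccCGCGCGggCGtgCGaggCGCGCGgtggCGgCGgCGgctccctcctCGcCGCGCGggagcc

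The expected counts of Ensembl genes summed to 48307541 in replicate 1 and 28945004 in replicate 2. Of 9 stem cell markers, 8 were detected in both libraries and Slamf1 was not, with 2.87 and 0.36 TPM. They summed to 538 and 377 TPM in replicates 1 and 2, and Mecom and Slamf1 were over 2-fold higher in replicate 1. Early myeloid markers summed to 489 and 1505 TPM, and all 4 were over 2-fold higher in replicate 2. Mature neutrophil markers summed to 0.50 and 315 TPM, with 6 of 8 higher in replicate 2 and Retnlg and Mmp8 at 0 in both. B cell markers summed to 9.08 and 34.0 TPM, with 5 of 7 higher in replicate 2. T and NK markers summed to 58.4 and 64.9 TPM, most of it Nkg7, with 4 of 6 higher in replicate 1 (Cd3e, Cd3g, Ncr1 and Klrb1c) and Lck higher in replicate 2. Erythroid markers summed to 1632 and 1333 TPM, and proliferation markers to 882 and 769 TPM. The part of these other cell types in the differences between the libraries was not tested, and in pooled cells fewer cells of a type and less RNA per cell cannot be told apart.

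Almost the whole machinery was present. Detection required at least 1 TPM, a level per base of transcript scaled to a fixed library total, together with an expected count of 10 or more. By this rule 52 of 55 members (94.5%) were detected in both libraries, against 45.5% of nuclear protein coding genes, and 45 members stood at 10 TPM or more in both. The median levels of the detected members were 30.4 and 24.8 TPM in replicates 1 and 2, against 11.4 and 10.3 TPM for coding genes detected in either library. Over all 55 members the medians were 28.8 and 23.2 TPM. Together the 55 members held 1.32% and 1.33% of the counts on coding genes. All levels below are TPM given for replicate 1 and then replicate 2, or as mean ± SD (n = 2 libraries at every value).

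**Figure D1:**
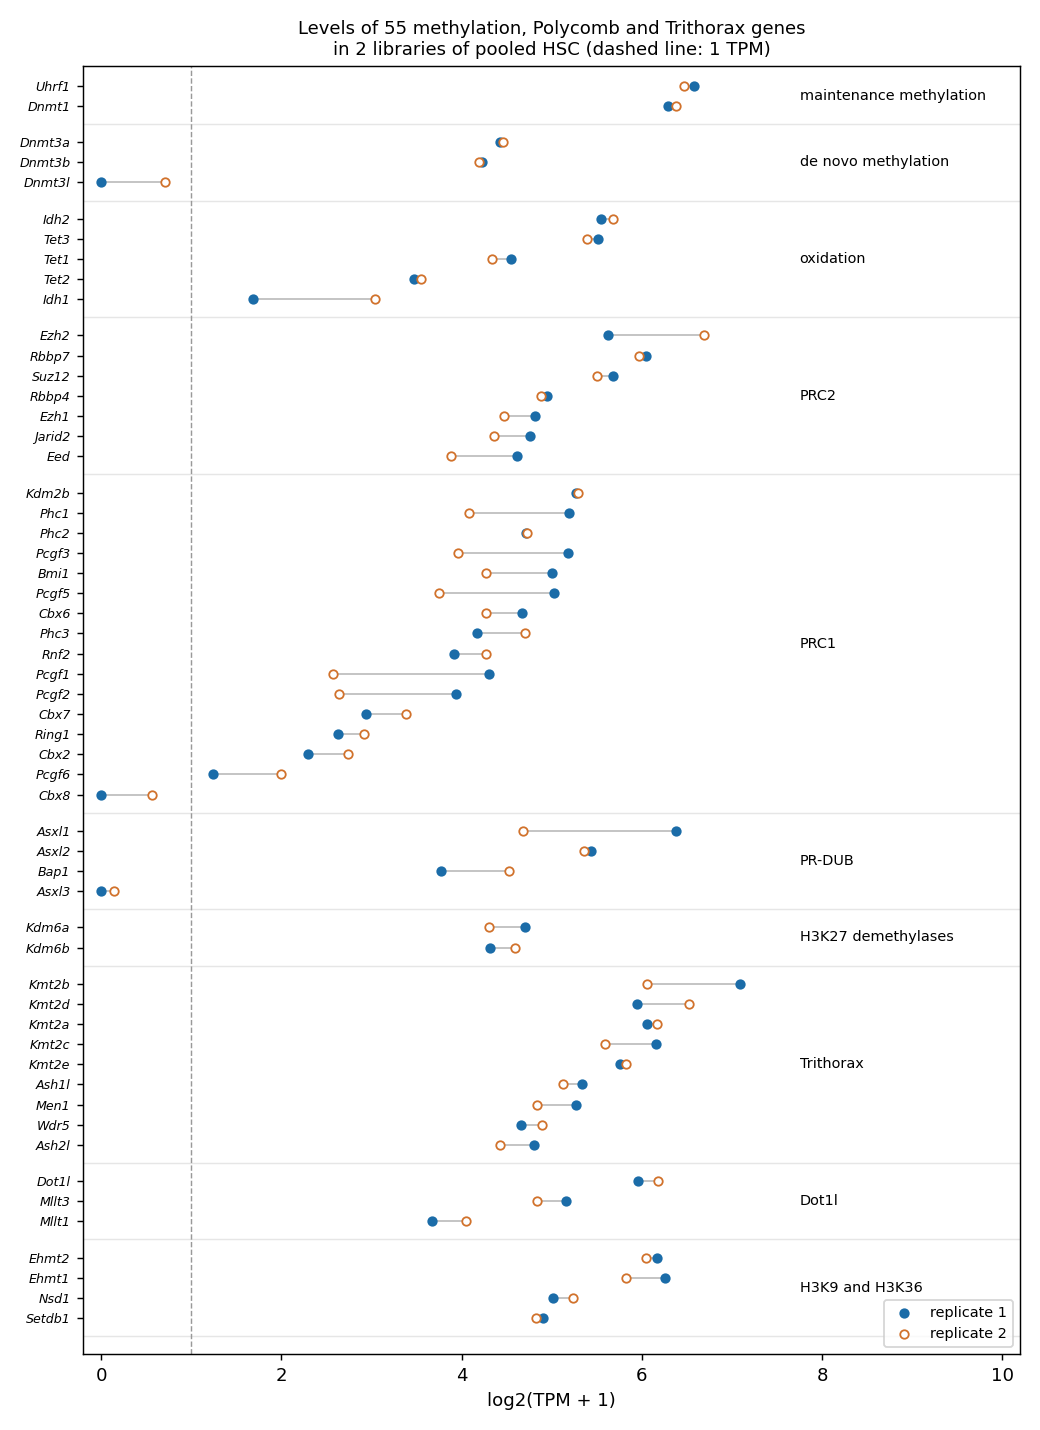
Level of each of the 55 genes as log2(TPM + 1), grouped by complex and ordered by mean TPM within it, with replicate 1 as filled points, replicate 2 as open points and a dashed line at 1 TPM. Only Dnmt3l, Cbx8 and Asxl3 lie left of the line, and the widest gaps between the libraries are those of Pcgf1 and Asxl1.

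The 3 members below the threshold each belong to a family whose other members were detected. Dnmt3l, the catalytically inactive cofactor of de novo methylation in germ cells, had 0 and 8 counts, at 0 and 0.63 TPM. Cbx8, a chromobox subunit of PRC1, had 0 and 30 counts, at 0 and 0.48 TPM. Asxl3, the third Asxl paralog, had 0 and 20 counts, at 0 and 0.10 TPM. All 3 had no reads in the deeper library and a few in the other. At the depth of replicate 1 a count of 0 allows up to 3 counts, or 0.087 TPM for Dnmt3l, 0.062 TPM for Cbx8 and 0.010 TPM for Asxl3. The 95% exact Poisson interval of the replicate 2 count was 3.45 to 15.8 for Dnmt3l, 20.2 to 42.8 for Cbx8 and 12.2 to 30.9 for Asxl3. Reads amplified by PCR are not independent molecules, so these limits and intervals cover counting error only.

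Maintenance methylation stood far above de novo methylation. Uhrf1, which reads hemimethylated DNA and recruits Dnmt1, had 94.4 and 87.2 TPM. Dnmt1 had 77.3 and 81.9 TPM, from 13133 and 7829 counts, so that both genes were close to equal and alike in gene TPM in the 2 libraries. Uhrf1 was led by Uhrf1-202 with 45.65% in replicate 1 and by Uhrf1-204 with 34.16% in replicate 2, and both are coding. Dnmt3a had 20.5 and 21.1 TPM and Dnmt3b had 17.8 and 17.2 TPM. Neither de novo enzyme was dominant: Dnmt3a held 53.9 ± 0.3% and Dnmt3b 45.3 ± 1.5% of the summed TPM of the Dnmt3 genes. The log2 ratio of Dnmt3a to Dnmt3b was 0.25 ± 0.06, and that of Dnmt1 to Dnmt3a was 1.93 ± 0.03, a 3.81-fold higher level of Dnmt1. When only transcripts annotated as protein coding were summed, Dnmt3a stood further above Dnmt3b, with a log2 ratio of 0.75 ± 0.07. With 2 libraries an exact two-sided sign-flip test of a ratio cannot give a p below 0.5, so no p is given for any ratio.

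Transcripts assigned to both Dnmt3a starts printed above had signal, in different proportion by library. Starts were not measured, so the shares here and for other genes rest on estimated transcript levels. In the mouse the internal start is known to give Dnmt3a2, a short form without the N-terminal region of the long enzyme. Transcripts from the upstream CpG-dense window carried 7.87 and 9.73 TPM, which is 38.3% and 46.2% of the gene. Transcripts from the internal window, which holds fewer CpGs, carried 12.7 and 5.00 TPM, or 61.6% and 23.7%. The upstream level was close in both libraries and the internal level was higher in replicate 1. Counts grow with transcript length. By counts the upstream start led in both libraries with 61.2% and 68.3%, against 38.7% and 22.4% for the internal start. The internal signal of replicate 1 was nearly all Dnmt3a-205, a coding transcript of 2328 bases with 12.1 and 2.40 TPM. The upstream transcript Dnmt3a-201, of 9685 bases, had 2.56 and 2.99 TPM. Dnmt3b was led by Dnmt3b-205 with 61.3% of the gene in replicate 1 and by Dnmt3b-206 with 35.6% in replicate 2, and both are coding. Dnmt1 transcripts from the downstream starts, in windows with 33 and 12 CpGs, held 89.6% and 69.7% of the gene. Dnmt1-202, whose start lies upstream in a window with 2 CpGs, held 10.4% and 30.3%.

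Of the Tet enzymes, which oxidise 5-methylcytosine, Tet3 was the most abundant by TPM and Tet2 the least. Tet3 had 44.8 and 41.1 TPM, Tet1 had 22.5 and 19.2 TPM, and Tet2 had 10.1 and 10.7 TPM. The order was the same in both libraries and the groups of values did not overlap. Tet3 held 57.9% of the family in each library, Tet1 28.0 ± 1.4% and Tet2 14.1 ± 1.5%. The log2 ratio was 2.03 ± 0.15 for Tet3 over Tet2, 1.04 ± 0.07 for Tet3 over Tet1, and -0.99 ± 0.22 for Tet2 over Tet1. A large part of the Tet3 level was not on coding transcripts. Tet3-201, a processed transcript of 2523 bases with no annotated coding sequence, carried 64.5% and 41.9% of the gene. On coding transcripts alone Tet3 had 15.9 and 23.9 TPM, Tet1 had 20.7 and 11.3 TPM, and Tet2 kept its 10.1 and 10.7 TPM, since it has a single annotated transcript. On that scale Tet3 stood above Tet2 in both libraries, with a log2 ratio of 0.90 ± 0.35. Its ratio to Tet1 was -0.38 in replicate 1 and 1.07 in replicate 2, so the order of Tet3 and Tet1 depends on which transcripts are counted. Tet1 itself was led by Tet1-203, a coding fragment of 581 bases with 39.1% and 17.4%, and by Tet1-202, a processed transcript with 7.89% and 41.0%.

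The 2 isocitrate dehydrogenases were unequal. Idh2, the mitochondrial enzyme, had 45.8 and 50.1 TPM. Idh1, the cytosolic enzyme, had 2.22 and 7.21 TPM, from 154 and 193 counts, and the log2 ratio of Idh2 to Idh1 was 3.54 ± 1.08. On coding transcripts Idh2 had 10.6 and 22.6 TPM and the ratio was 1.92 ± 0.40. Idh1 was 1 of 2 members over 2-fold higher in replicate 2, at a log2 difference of -1.35. Its reads were assigned to Idh1-203 in replicate 1 and mainly to Idh1-201, from another start, in replicate 2. The deposited TPM interval of Idh1-201 overlapped that of Idh1-203 in replicate 1. In replicate 2 it overlapped that of Idh1-205, which shares the start of Idh1-203, so the leading start of Idh1 is uncertain. For Idh2 the retained-intron transcript Idh2-205 and the coding Idh2-201 were nearly tied in replicate 1, at 23.6% and 23.1%. Idh2-201 led in replicate 2 with 45.1%.

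**Figure D2:**
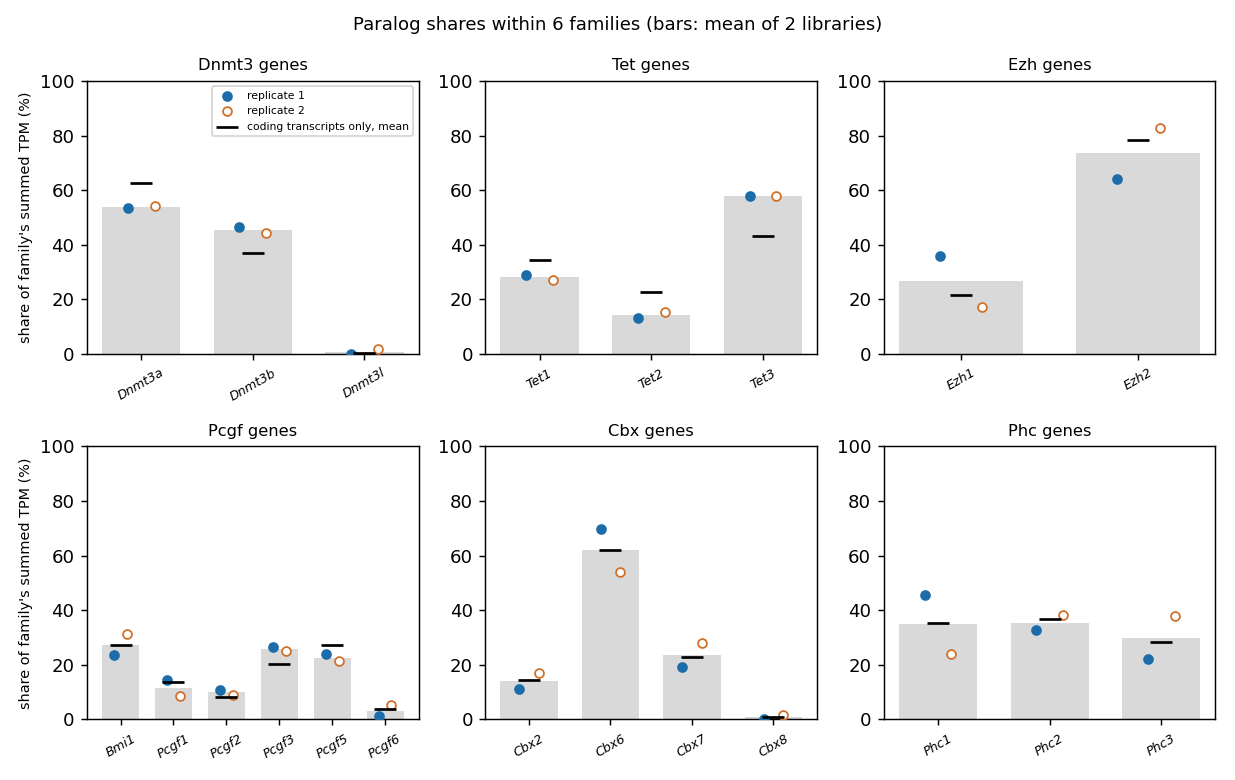
Share of each paralog in the summed TPM of its family for 6 families, with bars for the mean, filled points for replicate 1, open points for replicate 2, and a black dash for the mean share when only protein coding transcripts are summed. Tet3 leads its family by gene TPM at 57.9%, less so on coding transcripts, where Tet1 is ahead in replicate 1, and Ezh2 leads Ezh1 on either scale.

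PRC2 was complete, with all 7 members detected. Ezh2, the methyltransferase typical of dividing cells, had 48.1 and 102.3 TPM. Ezh1, its paralog with weaker methyltransferase activity, had 27.1 and 21.1 TPM. Ezh2 was the higher in both libraries and held 64.0% and 82.9% of the pair, a log2 ratio of 1.55 ± 1.02. On coding transcripts Ezh2 had 29.9 and 44.6 TPM and Ezh1 had 8.57 and 11.7 TPM, and the ratio became 1.86 ± 0.10, closer between the libraries. Transcripts outside the coding class differed between the libraries. Ezh2-209, a 666-base transcript of the nonsense-mediated decay class, held 0% and 29.5% of Ezh2, and Ezh1-204, an 819-base processed transcript, held 37.7% and 0.02% of Ezh1. The coding leaders were Ezh2-201 and Ezh2-202 for Ezh2, and Ezh1-202 and Ezh1-203 for Ezh1, each pair in replicate 1 and then replicate 2. The deposited TPM intervals of Ezh1-202 and Ezh1-203 overlapped in each library, so which of them led is uncertain.

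The other PRC2 subunits ranged more widely. Suz12, which PRC2 needs for its assembly, had 50.3 and 44.4 TPM. Eed, which binds trimethylated H3K27, had 23.5 and 13.7 TPM, but 614 and 329 counts. Eed-202, a 454-base retained intron, held 70.0% and 38.1% of that level, and coding Eed had 7.05 and 8.49 TPM. The histone-binding subunits Rbbp7, at 64.9 and 61.5 TPM, and Rbbp4, at 29.9 and 28.3 TPM, had the same ratio in both libraries on gene TPM, with Rbbp4 at 31.6% of the pair in each. On coding transcripts Rbbp4 held 11.3% and 21.7% of the pair, and by counts 36.5% and 49.6%. Jarid2, which recruits PRC2 and lacks demethylase activity, had 26.2 and 19.6 TPM. Leading transcripts also differed for Suz12 (Suz12-206 and Suz12-201, both coding), Jarid2 (Jarid2-206 of the decay class, then the coding Jarid2-208) and Rbbp4 (the processed Rbbp4-203, then the coding Rbbp4-201).

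No single Pcgf gene dominated PRC1. The Pcgf subunit sets the kind of PRC1: Pcgf2 and Bmi1 (Pcgf4) mark the canonical, chromobox-containing complexes, and Pcgf1, Pcgf3, Pcgf5 and Pcgf6 variant ones. Bmi1 had 31.0 and 18.3 TPM. Pcgf3 had 35.1 and 14.6 TPM, and Pcgf5 had 31.5 and 12.4 TPM. These 3 did not keep an order across the libraries, at mean shares of 27.4 ± 5.5% for Bmi1, 25.8 ± 1.2% for Pcgf3 and 22.5 ± 1.8% for Pcgf5. Pcgf1, of the complex with Kdm2b and Bcor, had 18.7 and 4.95 TPM from 478 and 65 counts. Pcgf2, the closest paralog of Bmi1, had 14.3 and 5.23 TPM from 491 and 120 counts. Pcgf6 was lowest, with 1.36 and 3.00 TPM. Bmi1 stood above these 3 in both libraries, with log2 ratios of 1.29 ± 0.81 over Pcgf1, 1.45 ± 0.48 over Pcgf2 and 3.49 ± 1.30 over Pcgf6. Its ratios to Pcgf3, 0.07 ± 0.36, and to Pcgf5, 0.27 ± 0.41, differed in sign between the libraries. Bmi1-202, a coding transcript, led in both with 83.3% and 67.9%.

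The catalytic and reader subunits of PRC1 were less even. Rnf2, the main ubiquitin ligase, had 14.0 and 18.4 TPM, and its paralog Ring1 had 5.17 and 6.53 TPM. Rnf2 held 73.1% and 73.8% of the pair, with a log2 ratio of 1.45 ± 0.04. Among the chromobox genes, whose proteins bind methylated H3K27, Cbx6 had 24.5 and 18.3 TPM, Cbx7 had 6.67 and 9.44 TPM, and Cbx2 had 3.89 and 5.68 TPM. The order Cbx6, Cbx7, Cbx2 and Cbx8 held in both libraries, and Cbx7 stood at a log2 ratio of 0.74 ± 0.03 over Cbx2 and -1.41 ± 0.65 over Cbx6. Cbx7 exons share 100 bases with Apobec3 on the opposite strand, which had 14332 and 6172 counts against 331 and 578 for Cbx7. Strand handling is not given. The Cbx7 counts were whole in both libraries, so no split of reads with Apobec3 shows in them. Whether reads of Apobec3 were counted for Cbx7 was not tested. Cbx7 was led by different coding transcripts, Cbx7-206 with 64.3% in replicate 1 and Cbx7-203 with 35.6% in replicate 2. Ring1 was led by the retained-intron Ring1-203 with 69.9% in replicate 1 and by the coding Ring1-201 with 71.8% in replicate 2.

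The Polyhomeotic subunits, which polymerise PRC1, did not keep an order. Phc1 had 35.4 and 15.9 TPM, Phc2 had 25.2 and 25.4 TPM, and Phc3 had 17.0 and 25.1 TPM. Phc2 was alike in both libraries, while Phc1 was highest in replicate 1 and lowest in replicate 2. Kdm2b, the zinc-finger protein that brings variant PRC1 to unmethylated CpG islands, had 37.6 and 38.2 TPM, the highest mean of PRC1. As for Dnmt3a, transcripts of both printed starts had reads assigned to them. Kdm2b-201, from the internal window with 49 CpGs, held 61.6% and 43.0% of the gene, and the transcripts of the upstream windows 17.6% and 28.2%. By counts the shares were 68.7% and 47.6% for the internal start, and 25.9% and 37.2% for the upstream one, so the internal start led in both libraries on either scale. Kdm2b exons share 627 bases with Rnf34 on the opposite strand.

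PR-DUB removes the H2A ubiquitin that PRC1 adds. Bap1, its catalytic subunit, had 12.7 and 22.1 TPM. Asxl2 had 42.3 and 39.9 TPM. Asxl1, a partner that Bap1 needs for activity, had 82.2 and 24.6 TPM from 5570 and 2764 counts. In replicate 1, Asxl1-202, a 355-base processed transcript, took 53.3% of the gene's TPM on 327 of its counts, and in replicate 2 it had none. The coding transcript Asxl1-201 had 22.5 and 22.1 TPM, nearly the same in both. On coding transcripts Asxl1 stood below Asxl2 in both libraries, at a log2 ratio of -0.32 ± 0.19, whereas on gene TPM the ratio was 0.96 in replicate 1 and -0.70 in replicate 2. Asxl2 was spread over many transcripts, led by Asxl2-202 with 29.3% in replicate 1 and Asxl2-207 with 21.0% in replicate 2.

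The H3K27 demethylases did not differ beyond the spread of the libraries on gene TPM. Kdm6a, which is X-linked and part of the Kmt2c and Kmt2d complexes, had 25.1 and 18.8 TPM. Kdm6b had 18.8 and 23.2 TPM. Their order differed between the libraries on gene TPM, and on coding transcripts Kdm6a was lower in both, at a log2 ratio of -0.77 ± 0.15.

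The Trithorax genes had the highest median of the groups of 4 genes or more, at 53.0 and 47.2 TPM, and all 9 were detected. Kmt2d, an enhancer H3K4 methyltransferase, had 60.7 and 91.1 TPM and the most counts of any member, 38370 and 20744. Kmt2a, the gene rearranged in MLL leukemia, had 65.6 and 70.6 TPM. Kmt2b had 135.5 and 65.3 TPM, Kmt2c had 70.0 and 47.2 TPM, and Kmt2e had 53.0 and 55.5 TPM. All 5 Kmt2 genes exceeded 45 TPM in both libraries, and on gene TPM no full order held across them. The excess of Kmt2b in replicate 1 lay on Kmt2b-208, a 651-base retained intron with 102.0 and 23.1 TPM, and on coding transcripts Kmt2b had 26.0 and 32.9 TPM, below Kmt2a at 40.9 and 34.8 TPM. On that scale the order was the same in both libraries, with Kmt2d at 60.7 and 91.1 TPM, then Kmt2e at 46.5 and 44.0 TPM, Kmt2c at 45.4 and 38.3 TPM, Kmt2a and Kmt2b. Kmt2c was split among transcripts, its leader Kmt2c-201 holding 33.8% and 40.3%. Kmt2a was led by the coding Kmt2a-201 with 42.2% in replicate 1. In replicate 2 Kmt2a-204, of the decay class, and Kmt2a-201 were nearly tied, at 44.0% and 43.9%.

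Among the other Trithorax members, Wdr5, a shared subunit of these complexes, had 24.2 and 28.7 TPM and Ash2l had 26.9 and 20.4 TPM. Men1, which tethers Kmt2a and Kmt2b to chromatin, had 37.6 and 27.5 TPM. It was led by Men1-212 of the decay class in replicate 1 and by the coding Men1-203 in replicate 2. The deposited TPM intervals of Men1-201, Men1-203 and Men1-212 overlapped in replicate 2, so its leader there is uncertain. Ash1l, an H3K36 methyltransferase of the Trithorax group, had 39.3 and 33.8 TPM.

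Dot1l, the H3K79 methyltransferase, had 61.2 and 71.3 TPM. Mllt3, a reader that works with Dot1l and also a marker on the stem cell list, had 34.8 and 27.5 TPM, and its paralog Mllt1 had 11.8 and 15.5 TPM. Mllt3 was the higher in both libraries, with a log2 ratio of 1.19 ± 0.52. Mllt3 transcripts from an internal start, in a window with 4 CpGs, held 65.4% and 56.4% of the gene, and those from the upstream start, with 29 CpGs, 23.7% and 27.1%. By counts, which grow with transcript length, the order turned round. They gave 38.1% and 24.2% from the internal start and 43.2% and 46.9% from the upstream one. The internal leaders were Mllt3-202 in replicate 1 and Mllt3-208, of 794 bases, in replicate 2.

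The H3K9 methyltransferase partners Ehmt1 and Ehmt2 were close to equal by gene TPM, at 75.3 and 55.5 TPM for Ehmt1 and 70.9 and 65.1 TPM for Ehmt2. Little of either was on coding transcripts: 6.32% and 31.5% of Ehmt1 and 28.7% and 32.2% of Ehmt2. Ehmt1 was led by Ehmt1-209, a 416-base processed transcript, and by the retained intron Ehmt1-208. Ehmt2 was led by the retained intron Ehmt2-210 and by Ehmt2-208 of the decay class. Setdb1, another H3K9 methyltransferase, had 28.8 and 27.4 TPM. Nsd1, an H3K36 methyltransferase with a single annotated transcript, had 31.4 and 36.7 TPM.

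Of the 24 paralog pairs with both genes detected, 15 kept the sign of their log2 ratio in both libraries and 9 did not. Of those 15, 14 also kept it on coding transcripts, the exception being Tet3 over Tet1. The 9 pairs without 1 order on gene TPM were Bmi1 with Pcgf3 and Pcgf5, Phc1 with Phc2 and Phc3, Asxl1 with Asxl2, Kdm6a with Kdm6b, Kmt2a with Kmt2b, Kmt2c with Kmt2d, and Ehmt2 with Ehmt1. On coding transcripts 6 of these 9 had the same sign in both libraries. Bmi1 was then above Pcgf3, Kmt2a above Kmt2b and Ehmt2 above Ehmt1, and Asxl1 was below Asxl2, Kdm6a below Kdm6b and Kmt2c below Kmt2d. The pairs of Bmi1 with Pcgf5 and of Phc1 with Phc2 and Phc3 differed in sign on that scale too.

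Differences between the libraries were read as log2(TPM + 1), replicate 1 minus replicate 2, a scale that understates those of low genes. On it 7 members (13.5% of those detected) were over 2-fold higher in replicate 1, against 11.2% of coding genes detected in either library. They were Pcgf1 at 1.73, Asxl1 at 1.70, Pcgf2 at 1.30, Pcgf5 at 1.27, Pcgf3 at 1.21, Phc1 at 1.11 and Kmt2b at 1.04, and 5 of the 7 belong to PRC1, which has 15 of the 52 detected members. By counts 3 PRC1 members were past 2-fold in that direction. Only Idh1 at -1.35 and Ezh2 at -1.07 (3.85%) were over 2-fold higher in replicate 2, against 12.1%. The first share is near its background and the second below it. With 1 library on each side these differences have no test. The median absolute difference of detected members was 0.35, against 0.42 for coding genes detected in both libraries.

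**Figure D3:**
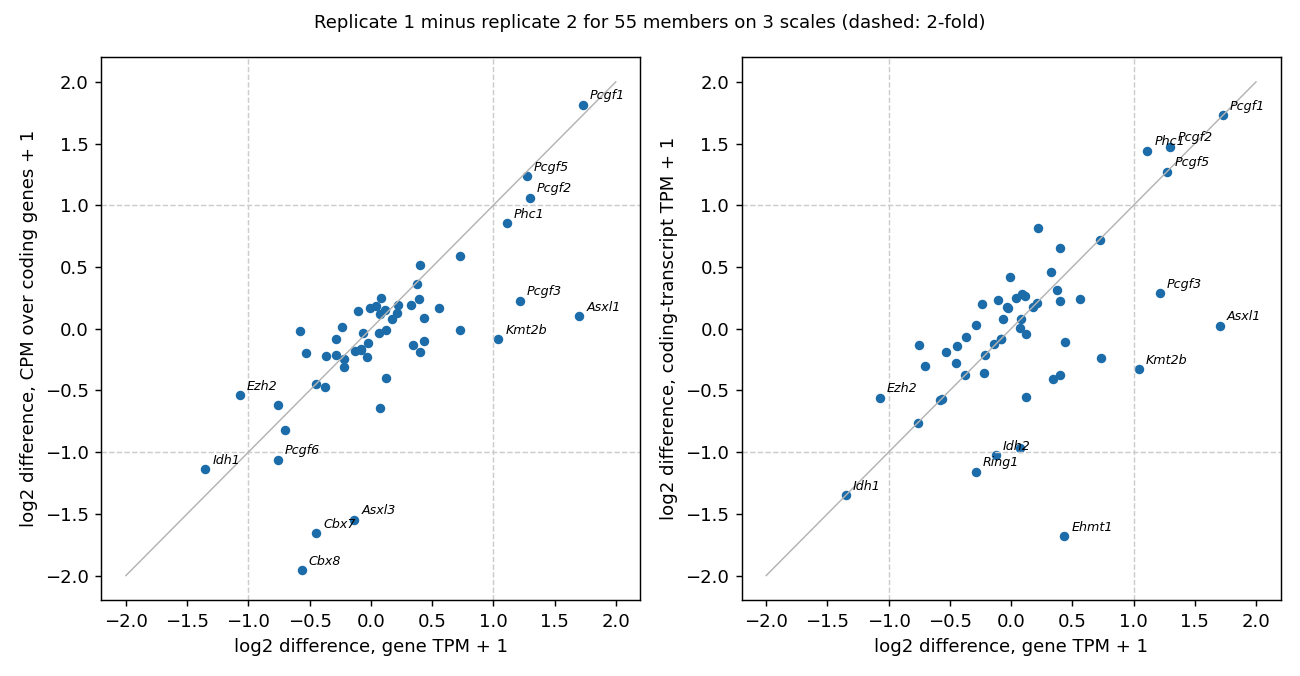
Log2 difference of each member, replicate 1 minus replicate 2, by gene TPM on the horizontal axes, against the difference by CPM (left) and by TPM of coding transcripts (right), with dashed lines at 2-fold and a diagonal of equality. Pcgf1, Pcgf2 and Pcgf5 lie near the diagonal in both panels, and Asxl1, Kmt2b and Pcgf3, past 2-fold by gene TPM, lie closer to 0 on the other scales.

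Pcgf1, Pcgf2 and Pcgf5 were over 2-fold higher in replicate 1 by TPM, by CPM over coding genes, with 1 CPM added (log2 differences of 1.81, 1.06 and 1.24) and by coding transcripts (1.73, 1.47 and 1.27). Phc1 was so by TPM and coding transcripts, and had 0.86 by counts. Asxl1, Kmt2b and Pcgf3 differed by 0.10, -0.08 and 0.23 by counts. Their effective lengths, the mean transcript length behind each TPM, differed by more: the log2 ratio was -1.55 for Asxl1, -1.05 for Kmt2b and -0.96 for Pcgf3. Pcgf3-204, a 325-base retained intron, held 49.9% and 5.92% of Pcgf3, and the coding Pcgf3-202 25.2% and 45.5%. For Ezh2 the count difference was -0.54, and for Idh1 it was -1.14. Effective length differed by over 1.5-fold in 8 detected members (15.4%, against 15.8% of coding genes), namely Asxl1, Cbx7, Kmt2b, Pcgf3, Eed, Kmt2d, Rbbp4 and Ezh2. By CPM 3 detected members were over 2-fold higher in replicate 1, against 9.09% of coding genes, and 3 in replicate 2 (Idh1, Pcgf6 and Cbx7), against 14.0%. The undetected Cbx8 and Asxl3 were past 2-fold in the same direction as these last 3. With TPM rescaled to nuclear protein coding genes, 5 members were over 2-fold higher in replicate 1, against 10.6% of coding genes, and 5 in replicate 2, against 16.4%. The 5 in replicate 2 included the undetected Dnmt3l and Cbx8. The median difference of coding genes detected in either library was 0.09 by TPM and -0.08 after that rescaling, against 0.07 and -0.11 for the members.

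**Figure D4:**
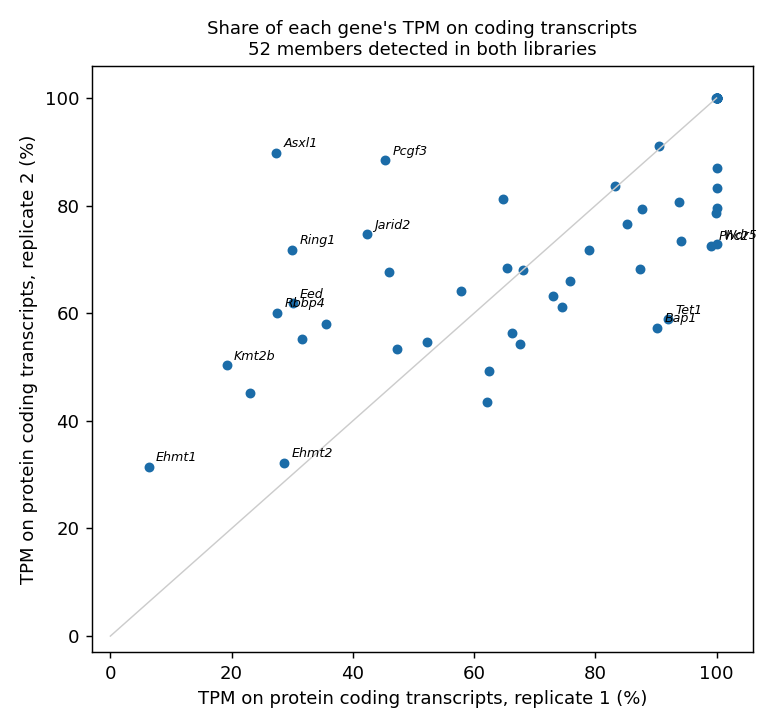
Percent of each gene's TPM carried by transcripts annotated as protein coding, replicate 1 on the horizontal axis and replicate 2 on the vertical one, for the 52 detected members with a line of equality. Asxl1 lies furthest from the line, at 27.4% in replicate 1 and 89.9% in replicate 2, and Ehmt1 is lowest in replicate 1 at 6.32%.

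The members have many annotated transcripts, a median of 7 against 4 for coding genes detected in either library. Coding transcripts carried a median of 77.4% and 72.2% of a member's TPM, against 100% and 91.8% for those genes. In replicate 1, 14 members (26.9%) had under 50% of their TPM on coding transcripts, against 21.9% of coding genes, and in replicate 2 it was 5 members (9.62%) against 18.6%. The leading transcript was the same in both libraries for 29 of 52 members (55.8%), against 63.4% of 10545 coding genes. It was not protein coding for 13 members in replicate 1, for 7 in replicate 2 and for 4 in both, which were Tet3, Kmt2b, Ehmt1 and Ehmt2. Near ties enter these counts, as for Kmt2a in replicate 2 and Idh2 in replicate 1. TPM is a level per base of transcript, so a read on a short transcript adds more to it than a read on a long one.

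The promoters were mostly CpG-dense. RefSeq windows were matched for 46 members, 66 windows in all, and a window was called CpG-rich at an observed over expected CpG of at least 0.6 with at least 50% G and C. The motif is CG, which is its own reverse complement. By this rule 51 of 66 windows (77.3%) were CpG-rich, against 69.2% of 10033 windows of coding genes detected in both libraries and 21.1% of 8553 windows of coding genes detected in neither. At least 1 window was CpG-rich for 41 members and none for 5. Those 5 were Dnmt3l, Idh2, Pcgf2, Phc1 and Tet3. Windows were counted whether or not their start carried signal. Pcgf5 is among the 41, yet all its TPM lay on a start whose window, with 5 CpGs, was not CpG-rich. The 3 Dnmt3l windows held 6, 4 and 3 CpGs, and the other undetected gene with a window, Cbx8, had a CpG-rich one with 24. Methylation itself was not measured, so these are counts of letters only.

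**Figure D5:**
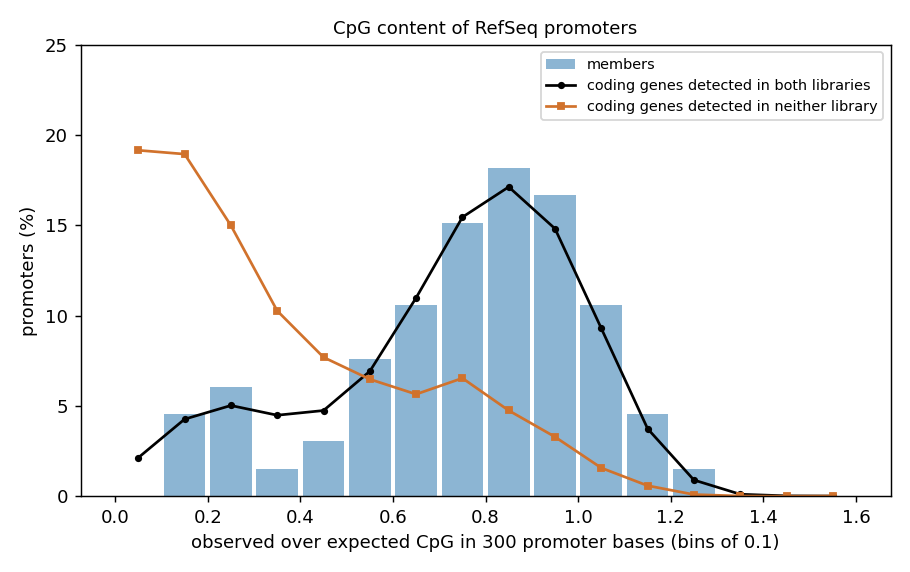
Observed over expected CpG in 300-base RefSeq promoter windows, as percent of windows per bin of 0.1, with bars for the 66 member windows, circles for coding genes detected in both libraries and squares for coding genes detected in neither. The members' bars follow the curve of detected genes, with a median of 0.80 against 0.78, and the undetected genes peak at the low end.

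The exons of 22 members overlap those of another gene. For 10 of them it is a coding gene, on the opposite strand except for Npcd beside Cbx6. Besides Cbx7 and Kdm2b, the coding neighbours with reads in both libraries were Srpk2 beside Kmt2e, Cers2 beside Setdb1, Dap3 beside Ash1l, Txlng beside Rbbp7, Trmt1l beside Rnf2 and Aire beside Dnmt3l. Expected counts were whole for 50 members, within 0.005, and not for Uhrf1, Dnmt3b, Rbbp7, Kdm2b and Setdb1, where reads were shared with other places. They were whole for Cbx7, Kmt2e, Ash1l, Rnf2 and Dnmt3l, so no split of reads with the genes overlapping these shows.

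Partners of these complexes outside the list were present as well: 71 of 75 further chromatin genes (94.7%) were detected in both libraries. Among readers and helpers of DNA methylation, 10 of 11 were detected, led by the deubiquitinase Usp7 with 178 and 145 TPM and the methyl-CpG binding protein Mbd2 with 90.4 and 86.2 TPM, and Gadd45b was not, with 0 and 2.18 TPM. Of the PRC2 accessory genes 5 of 6 were detected, led by Mtf2 with 41.2 and 33.6 TPM and Aebp2 with 39.8 and 26.1 TPM, and Epop was not, with 0.01 and 0.91 TPM. Of the PRC1 accessory genes 11 of 12 were detected, led by Mga with 63.5 and 69.8 TPM and Scmh1 with 55.9 and 39.5 TPM, and Wdr5b was not, with 0 and 3.20 TPM. Of 12 other genes of the H3K4 methyltransferase complexes, 11 were detected, led by Hcfc1 with 104 and 121 TPM and Psip1 with 79.7 and 68.7 TPM. Kat8, an H4K16 acetyltransferase, was not, with 0 and 132 counts, at 0 and 5.04 TPM. All members of the other lists were detected. Their leaders were Aff4 and Mllt10 for Dot1l and elongation, Trim28 and Atf7ip for H3K9, Psip1 and Nsd3 for H3K36, Kdm2a and Kdm5a for demethylases, and Ogt and Hcfc1 for PR-DUB partners.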

How the data were processed

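Gene and transcript tables of 2 total RNA-seq libraries were used. Expected counts (estimated reads, with reads of several places shared out), TPM and FPKM were deposited by the authors for each gene. The percent of a gene's TPM on each transcript was deposited by the authors as well. Bounds of an interval of TPM (a score, its level not given) were deposited too. They serve here only to mark where the leading transcript is uncertain. Column names are those of RSEM, per the file headers, and build mm10 and annotation GENCODE M4 are given per the labels. Aligner, versions and strand handling: not given in the sources used here.

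Symbols, biotypes and positions came from GENCODE M21, a name table and RefSeq (GRCm38.p6). Detection required 1 TPM and an expected count of 10. Differences used log2(TPM + 1), and ratios a pseudocount of 0.1 TPM. Transcripts within 500 bases of a RefSeq start were assigned to it, and starts under 1000 bases apart were joined. Expected counts were rounded to whole numbers for edgeR 4.0.16 TMM factors and DESeq2 1.42.0 size factors, used in alternatives only, in R 4.3.3. Python 3.11.15 (matplotlib 3.10.9, numpy 2.4.6, pandas 2.3.3, scipy 1.17.1) ran the remaining steps, which were tested on simulated data.

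The members and lists were chosen with earlier results of these data known. Every member is given. Transcripts are named where the gene had 100 counts in both libraries and its leading transcript differed or held under 50% in both, and for Dnmt3a, Dnmt3b, the Tet and Ezh genes and Bmi1. The comparison of protein sequences was not run. Alternatives changed thresholds, pseudocount, TPM estimate, scaling, normalisation and transcript class.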

Additional observations from a re-analysis of the deposited data

How the results depend on the processing

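The number of members detected in both libraries stayed at 51 or 52 of 55 under every threshold, TPM estimate and single library tried. Left with 1 library, the median of the members' TPM was 23.2 without replicate 1 and 28.8 without replicate 2. It averaged 26.0 over both libraries, 91.6 when TPM was rescaled to nuclear protein coding genes and 17.9 on coding transcripts. The count of members over 2-fold higher in replicate 1 (7) and in replicate 2 (2) became 7 and 5 with a pseudocount of 0.1 TPM (coding genes 14.2% and 14.5%), 4 and 1 with 5 TPM (4.84% and 2.76%), 5 and 5 with rescaled TPM (10.6% and 16.4%), 2 and 3 with TMM factors (7.20% and 11.8%), 3 and 6 with DESeq2 size factors (9.46% and 15.4%), and 4 and 4 on coding transcripts (10.4% and 14.4%). These member counts are of all 55, whereas the percentages are of coding genes detected in either library. The undetected members counted as higher in replicate 2 were Dnmt3l and Cbx8 with 0.1 TPM and with rescaled TPM. With TMM factors it was Cbx8, and with DESeq2 size factors Dnmt3l, Cbx8 and Asxl3. The members' median log2 difference (0.069) became -0.105 with rescaled TPM, -0.060 with TMM factors, -0.077 with DESeq2 size factors and -0.041 on coding transcripts. Coding transcripts were added as a scale for levels and differences after seeing the data.

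No paralog ratio whose sign held in both libraries was turned round in its mean by any alternative. The log2 ratio of Dnmt3a to Dnmt3b (0.25) became 0.36 with posterior mean TPM, 0.86 with counts not divided by length and 0.75 on coding transcripts. Counts gave -0.48 for Tet2 over Tet1, 0.77 for Tet3 over Tet1, 1.25 for Tet3 over Tet2, 2.90 for Bmi1 over Pcgf1, 2.44 over Pcgf2, -0.32 over Pcgf3 and 1.02 over Pcgf5. Coding transcripts gave -0.55 for Tet2 over Tet1, 0.35 for Tet3 over Tet1, 0.90 for Tet3 over Tet2 and 0.47 for Bmi1 over Pcgf3. The ratio of Idh2 to Idh1 (3.54) was 1.92 and that of Rbbp4 to Rbbp7 (-1.11) was -2.40 on coding transcripts. Of 27 ratios, 9 stayed within 1 SD of their value by TPM on counts and 14 on coding transcripts. Leading transcripts were the same in both libraries for 29 members, or 37 among coding transcripts. The causes were not tested. No paired analysis was possible because the series has a single group. Among detected members the lowest counts were 86 in replicate 1 and 65 in replicate 2, so the values of the lowest members rest on few reads. The median counts of detected members were 2697.5 and 1539.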
